A study of Mus musculus with 6 samples.

Results

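The mouse collagen genes were followed through 4 stages of oligodendrocyte formation in culture, from epiblast stem cells (EpiSCs) through neural rosettes and oligodendrocyte progenitor cells (OPCs) to oligodendrocytes. A gene was taken as a collagen gene when its only symbol in the array annotation was Col, a number, the letter a and a number, and 44 of the 19938 genes measured fitted this rule. Col6a5 and Col6a6 had 2 measured transcripts each, and the one with the higher mean was used. The symbols were taken as given, and the family of each gene is from textbook knowledge: 11 fibrillar, 6 type IV, 6 type VI, 9 fibril-associated, 3 short-chain, 2 multiplexin and 4 transmembrane collagens, and 3 others.

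Each of the 6 arrays measured 1 RNA sample from cells of strain 129. The EpiSCs (1 array), pluripotent cells of the epiblast after implantation, were kept in a medium with serum replacement and FGF2. The rosettes (1 array) were EpiSCs after 5 days with SB431542, Dorsomorphin, Noggin, RA and SHH, labelled as ventral neural tube. The OPCs (1 array at passage 11 and 1 at passage 3) came from dissociated rosettes and grew in N2B27 with FGF2, PDGF-AA and SHH. The oligodendrocytes (1 array at passage 11 and 1 at passage 3) came from OPCs of that passage after thyroid hormone was added and FGF2 and PDGF-AA were withdrawn. No genetic change is labelled, and the number of cell lines or of separate cultures is not given in the sources used here. Values are log2 RMA expression, so a difference of 1 is 2-fold. The level of a gene was set against the median of all genes, but not against that of another single gene.

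Collagens are the main structural proteins of the extracellular matrix, and each is built from chains that wind around each other into a helix. Fibrillar collagens form the fibres of bone, skin, tendon and cartilage. Type IV collagens form the sheet of basement membranes, and fibril-associated collagens sit on the surface of fibres. In the brain, collagen lies mainly in the meninges and around blood vessels and is sparse between the neural cells.

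The labels were checked on marker genes. The 5 EpiSC markers averaged 12.90 log2 in the EpiSCs and between 7.89 and 8.29 on the other arrays, and the 6 OPC markers averaged 12.30 and 12.16 in the OPCs of passages 11 and 3, against 8.87 in the rosettes. The 5 oligodendrocyte markers measured averaged 12.54 and 12.20 in the oligodendrocytes of passages 11 and 3, against 8.59 and 8.46 in the OPCs. The 5 rosette markers averaged 11.26 in the rosettes, 9.77 in the EpiSCs, and 10.56 and 10.82 in OPCs of passages 11 and 3. The 8 neuron markers were also highest on the rosette array, at 12.14, against 9.23 in the EpiSCs and between 9.39 and 10.03 on the other arrays. The part of neurons in the rosette values was not tested. The arrays were mixtures of RNA, so fewer cells of a type and less RNA per cell cannot be told apart.

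Few collagen genes differed by 2-fold over this course, and the widest ranges were those of Col8a1 and Col12a1, whose highest value was in oligodendrocytes of passage 3. Over the 6 arrays the median range of a collagen gene, from its lowest to its highest array, was 0.40 log2, against 0.60 log2 over all genes. A range of at least 2-fold was reached by 4 of 44 collagen genes (9.09%), against 28.5% of all genes: Col8a1 (3.48 log2), Col12a1 (2.63), Col9a1 (1.05) and Col5a2 (1.03). The other 40 ranged over 0.15 to 0.96 log2. Of the 44, 16 lay above the median of all genes (9.005 log2) on every array, 31 on at least 1 array and 13 on none, and no detection call was available to say which low values were background. Counts against this median, here and for the marker lists below, were not made over all genes.

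**Figure D1:**
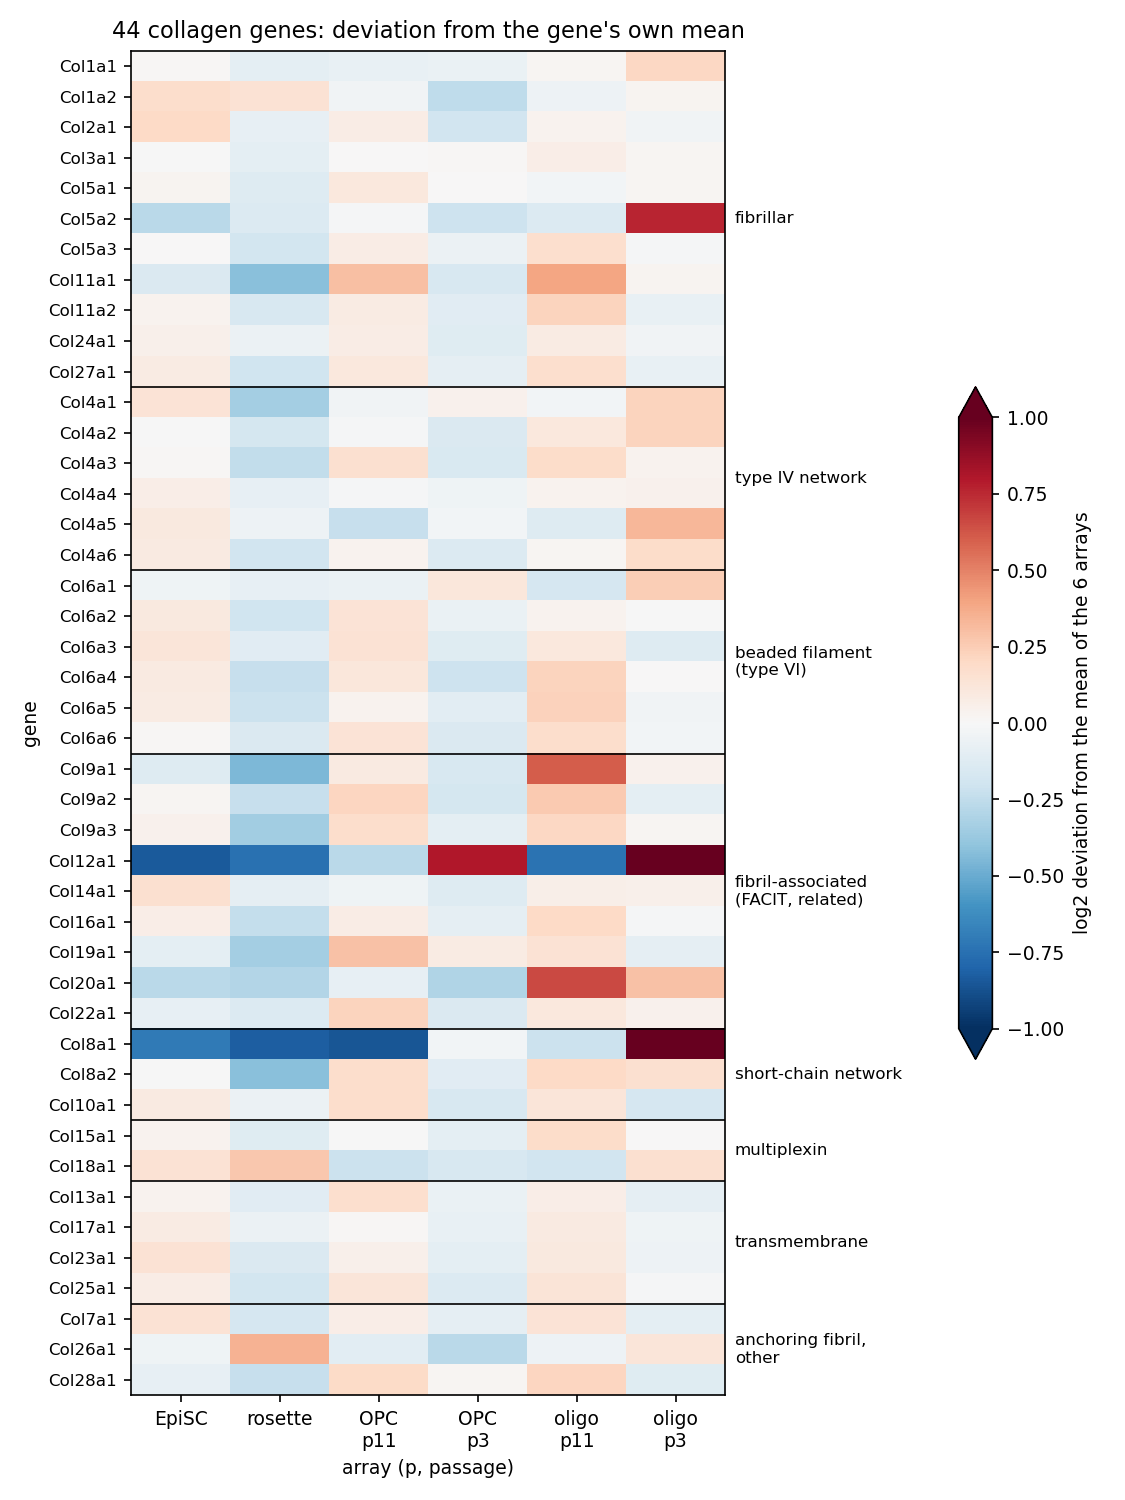
Deviation of each of the 44 collagen genes (rows, by family) from its own mean over the 6 arrays (columns), in log2, with the colour scale ending at -1 and 1. Most rows are pale, and the strong colours lie in Col8a1 and Col12a1, with the highest values in oligodendrocytes of passage 3 (12.14 and 10.81 log2).

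No collagen gene passed the test in any comparison that could be tested. Between OPCs and the rosettes, limma called 0 of 44 at an adjusted p under 0.05, against 3.13% of all genes, and 2 of 44 had an unadjusted p under 0.05, against 15.4% of all genes. With passage as a block it also called 0 of 44, while the count over all genes was 1206 in place of 624. Between oligodendrocytes and OPCs it called 0 of 44, against 0.446% of all genes, with 1 of 44 at an unadjusted p under 0.05, against 12.3%. Between passages 11 and 3, with cell type as a covariate, it called 0 of 44 and 0% of all genes, with 6 of 44 at an unadjusted p under 0.05, against 13.9%. The rosettes and EpiSCs had 1 array each, so they were compared without a test, and 0 of 44 collagen genes differed by at least 2-fold, against 10.6% of all genes. A fit by cell type takes the 2 passages as replicates, so a gene that differs with passage has a wide error there. The rosettes' single array was assumed to vary like the OPC and oligodendrocyte pairs.

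**Figure D2:**
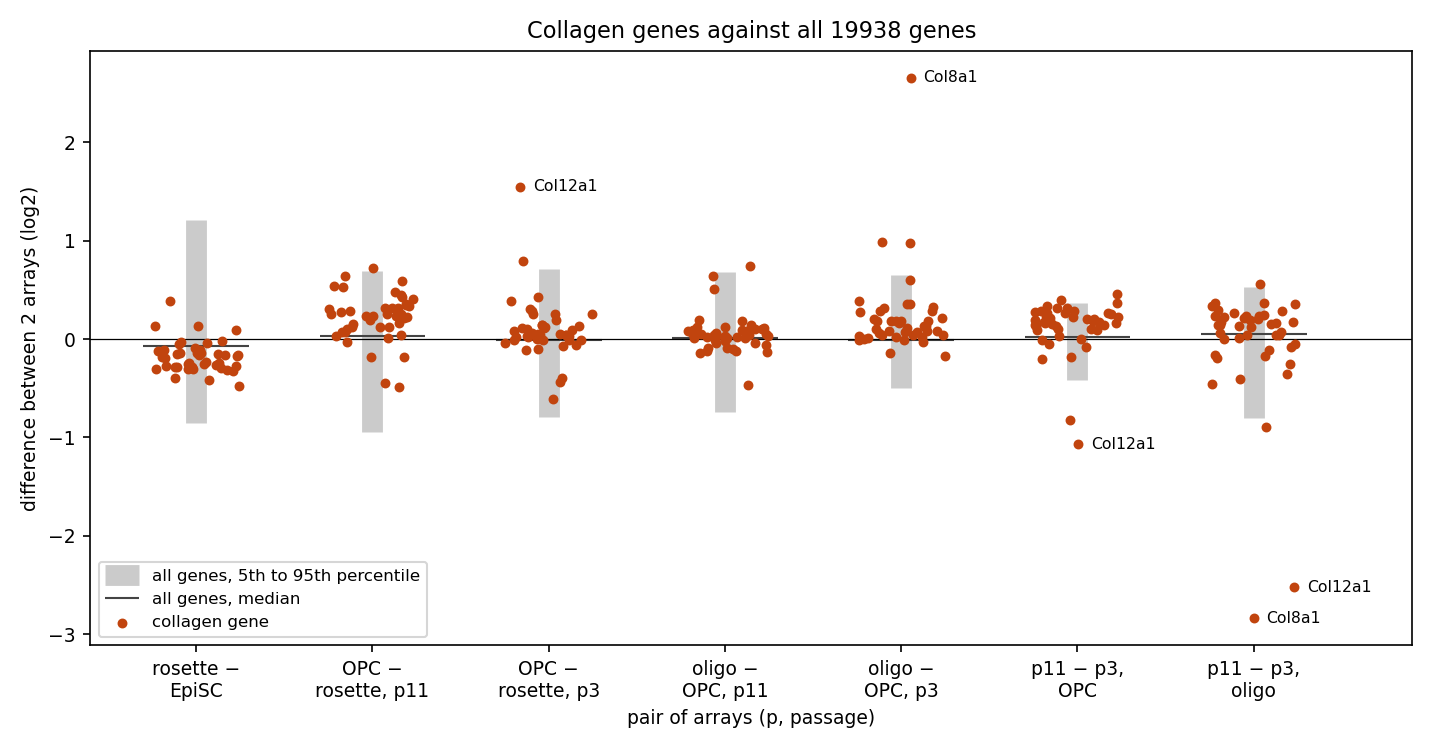
Difference between 2 arrays (log2) for the 44 collagen genes (points) in 7 pairs of arrays, with the median (line) and the 5th to 95th percentile (grey bar) of all 19938 genes. Col8a1 and Col12a1, named where they reach 2-fold, stand outside the grey bars in oligodendrocytes, at -2.84 and -2.52 between passages 11 and 3.

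Col8a1 encodes a chain of the short-chain type VIII collagen, which forms a lattice in the Descemet membrane of the cornea and in vessel walls. It had 8.82 log2 in the EpiSCs, 8.70 in the rosettes, 8.66 and 9.49 in OPCs of passages 11 and 3, and 9.31 and 12.14 in oligodendrocytes of passages 11 and 3. The oligodendrocytes of passage 3 stood apart from the other 5 arrays, and the oligodendrocytes of passage 11 lay below the OPCs of passage 3, so the 2 cell types overlapped. Oligodendrocytes were higher than the OPCs of the same passage by 0.64 at passage 11 and by 2.65 at passage 3. The mean difference of 1.65 ± 0.92 log2 (SE) did not pass limma's test (adjusted p = 0.593), and it was 0.23 without the oligodendrocytes of passage 3 and 3.07 without those of passage 11. Passage 11 minus passage 3 was -2.84 in oligodendrocytes and -0.83 in OPCs, a fitted difference of -1.83 ± 0.50 log2 (SE), or 3.56-fold lower, which had an unadjusted p of 0.0203 and an adjusted p of 0.357 by limma.

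The partner chain of type VIII collagen did not follow. Col8a2 had 8.51 log2 in the EpiSCs, 8.09 in the rosettes, 8.68 and 8.39 in OPCs of passages 11 and 3, and 8.71 and 8.67 in oligodendrocytes of passages 11 and 3, all below the median of all genes. Its passage difference in oligodendrocytes was 0.04 log2. The third short-chain gene, Col10a1, a collagen of cartilage that is about to turn to bone, stayed between 7.99 and 8.33 log2.

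The region around the annotated start of Col8a1, the collagen gene with the widest range, lies at chr16:57754688-57754987 on the minus strand (GRCm38.p6, RefSeq). It holds 250 bases before the start and 50 after it, and is printed 5′ to 3′ in the direction of the gene with each CpG, the cytosine and guanine pair that can be methylated, in capitals.

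Col8a1: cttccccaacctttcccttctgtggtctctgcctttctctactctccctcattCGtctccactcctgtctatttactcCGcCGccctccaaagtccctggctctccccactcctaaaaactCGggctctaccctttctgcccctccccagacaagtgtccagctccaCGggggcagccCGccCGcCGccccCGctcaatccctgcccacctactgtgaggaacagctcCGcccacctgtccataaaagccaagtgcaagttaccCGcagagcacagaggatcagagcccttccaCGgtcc

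This window is 60.3% G and C and holds 12 CpGs, against a median of 7 CpGs over 32851 RefSeq windows of the same length and 11.5 over the 38 windows of 35 collagen genes. Searched on both strands, it held neither the TATAAA box nor the CCAAT box, and no match to the AP-1 letters TGANTCA, the TEAD letters CATTCC, the SOX letters ACAAAG or the CArG box of serum response factor. These occur in 13.6%, 37.4%, 7.81%, 14.7%, 18.7% and 1.63% of all windows, in that order.

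Col12a1 encodes type XII collagen, a fibril-associated collagen found on type I fibres of tendon and ligament. It had 8.18 log2 in the EpiSCs, 8.27 in the rosettes, 8.75 and 9.82 in OPCs of passages 11 and 3, and 8.28 and 10.81 in oligodendrocytes of passages 11 and 3. Both passage 3 arrays lay above every other array, and the oligodendrocytes of passage 11 were at the level of the rosettes. Passage 11 minus passage 3 was -2.52 in oligodendrocytes and -1.07 in OPCs, which made it the only 1 of 44 collagen genes at least 2-fold lower in both cell types, against 0.336% of all genes. The fitted passage difference was -1.80 ± 0.37 log2 (SE), or 3.47-fold lower, with an unadjusted p of 0.00744 and an adjusted p of 0.357 by limma.

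Between the stages, the 2 passages gave Col12a1 different pictures. OPCs were above the rosettes by 0.48 at passage 11 and by 1.55 at passage 3, a mean of 1.01 ± 1.04 log2 (SE) with an adjusted p of 0.792 by limma. Oligodendrocytes minus OPCs was -0.47 at passage 11 and 0.98 at passage 3, a mean of 0.26 ± 0.85 log2 (SE) with an adjusted p of 0.987. Without the oligodendrocytes of passage 3 the mean difference between oligodendrocytes and OPCs was -1.002, and without those of passage 11 it was 1.52. The OPC-to-rosette difference of 1.01 reached an adjusted p of 0.0486 in limma when either oligodendrocyte array was left out, which left the difference as it was and called 2897 of all genes in place of 624.

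**Figure D3:**
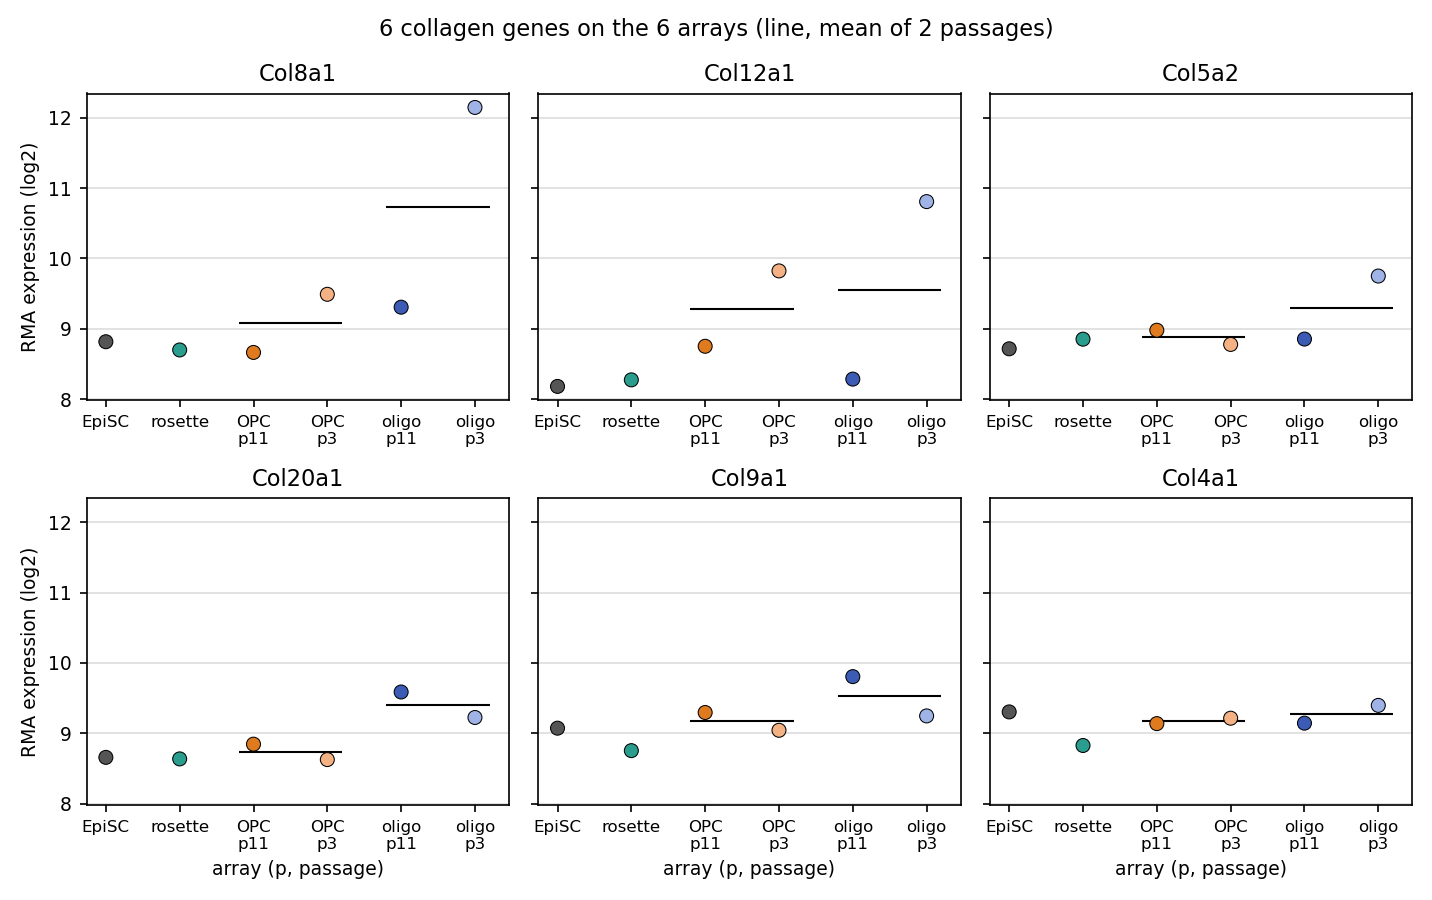
RMA expression (log2) of 6 collagen genes on each of the 6 arrays, with a line at the mean of the 2 passages. Col8a1 and Col12a1 are highest in oligodendrocytes of passage 3, Col20a1 is above both OPC arrays in both oligodendrocyte arrays (9.59 and 9.23), and Col4a1 stays between 8.83 and 9.40.

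Among the other 8 fibril-associated collagens, Col20a1, a type XX collagen, had the lowest adjusted p between oligodendrocytes and OPCs. It had 8.66 log2 in the EpiSCs, 8.64 in the rosettes, 8.85 and 8.63 in OPCs of passages 11 and 3, and 9.59 and 9.23 in oligodendrocytes of passages 11 and 3. Every oligodendrocyte array was above every other array, by 0.74 at passage 11 and by 0.60 at passage 3 over the OPCs of the same passage. The mean difference was 0.67 ± 0.19 log2 (SE), or 1.59-fold, with an unadjusted p of 0.0138 and an adjusted p of 0.255 by limma, so it did not pass. Without the oligodendrocytes of passage 3, the difference was 0.85 with an adjusted p of 0.00785 in limma, which then called 2919 of all genes in place of 89. The adjusted p was 0.189 without the oligodendrocytes of passage 11, 0.730 without the OPCs of passage 11 and 0.9999 without those of passage 3.

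The start region of Col20a1, shown beside that of Col8a1 for its different base composition, lies at chr2:180986285-180986584 on the plus strand (GRCm38.p6, RefSeq) and is printed in the same way, with its CpG in capitals.

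Col20a1: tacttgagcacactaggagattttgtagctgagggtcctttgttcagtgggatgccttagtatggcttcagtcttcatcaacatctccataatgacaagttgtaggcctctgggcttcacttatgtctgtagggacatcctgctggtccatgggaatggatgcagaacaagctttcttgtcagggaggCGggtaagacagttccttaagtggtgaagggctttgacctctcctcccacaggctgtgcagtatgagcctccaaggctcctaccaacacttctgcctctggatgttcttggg

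It is 50% G and C and holds 1 CpG. On either strand it held CATTCC at bases 153 to 158 and ACAAAG at bases 38 to 43, counted from 1 at the first base printed, motifs that occur in 14.7% and 18.7% of all windows.

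Type IX collagen, built from Col9a1, Col9a2 and Col9a3, coats the type II fibres of cartilage. Col9a1 had 9.07 log2 in the EpiSCs, 8.75 in the rosettes, 9.30 and 9.04 in OPCs of passages 11 and 3, and 9.81 and 9.25 in oligodendrocytes of passages 11 and 3. It was lowest in the rosettes and highest in oligodendrocytes of passage 11, the opposite passage from Col8a1 and Col12a1. Passage 11 was above passage 3 by 0.56 in oligodendrocytes and by 0.25 in OPCs, and the fitted difference of 0.41 ± 0.13 log2 (SE) had an adjusted p of 0.357 by limma. Its partner Col9a2 had a fitted passage difference of 0.38 ± 0.11 log2 (SE), with passage 11 higher by 0.36 in oligodendrocytes and by 0.39 in OPCs. Col9a3 lay between 9.48 and 10.04 log2, also lowest in the rosettes and highest in oligodendrocytes of passage 11.

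Col19a1, a fibril-associated collagen known from synapses and muscle, was 1 of the 2 collagen genes with an unadjusted p under 0.05 between OPCs and the rosettes. It had 8.42 and 8.21 log2 in OPCs of passages 11 and 3, against 7.78 in the rosettes, a difference of 0.53 ± 0.20 log2 (SE) with an adjusted p of 0.3004 by limma. All of its values were below the median of all genes. Col14a1, Col16a1 and Col22a1 each stayed within 0.44 log2 or less.

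The 11 fibrillar genes had ranges from 0.16 to 1.03 log2 with a median of 0.37, and the widest were those of Col5a2 and Col11a1. Col1a1, the main chain of bone, skin and tendon collagen, had 9.90 log2 in the EpiSCs, 9.79 in the rosettes, 9.82 and 9.82 in OPCs of passages 11 and 3, and 9.91 and 10.10 in oligodendrocytes of passages 11 and 3. Col3a1, the collagen of vessel walls and other elastic tissues, stayed between 9.06 and 9.22 log2. Neither was at least 2-fold apart between any 2 arrays, while Col8a1 and Col12a1 were.

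Col5a2, a chain of type V collagen, which sits inside type I fibres and limits their width, had 8.72 log2 in the EpiSCs, 8.85 in the rosettes, 8.98 and 8.78 in OPCs of passages 11 and 3, and 8.85 and 9.75 in oligodendrocytes of passages 11 and 3. Only the oligodendrocytes of passage 3 stood apart. Oligodendrocytes minus OPCs was -0.13 at passage 11 and 0.97 at passage 3, a mean of 0.42 ± 0.31 log2 (SE) with an adjusted p of 0.735 by limma. Its partner chain Col5a1 had 9.28 and 9.34 log2 in oligodendrocytes of passages 11 and 3, against 9.42 and 9.32 in OPCs. Col5a1 thus lacked the high value of Col5a2 at passage 3.

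Col11a1, a chain of the minor fibrillar collagen of cartilage, had 9.16 log2 in the EpiSCs, 8.88 in the rosettes, 9.60 and 9.14 in OPCs of passages 11 and 3, and 9.69 and 9.33 in oligodendrocytes of passages 11 and 3. Both passage 11 arrays were above all others. The fitted passage difference was 0.41 ± 0.11 log2 (SE), with an adjusted p of 0.357 by limma. Col2a1, a chain of the main cartilage collagen, ranged from 9.37 to 9.77 log2 with its highest value in the EpiSCs.

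The 6 type IV genes of the basement membrane shifted little between the stages, with ranges of 0.15 to 0.57 log2. Of the 6, 0 were higher in the rosettes than in the EpiSCs, against 41.3% of all genes. By the fitted differences, 5 of 6 were higher in OPCs than in the rosettes, against 53.1% of all genes. Between oligodendrocytes and OPCs 6 of 6 were higher in oligodendrocytes, against 50.2%. Col4a1 had 9.30 log2 in the EpiSCs, 8.83 in the rosettes, 9.14 and 9.22 in OPCs of passages 11 and 3, and 9.14 and 9.40 in oligodendrocytes of passages 11 and 3. Col4a2 had 8.93 in the EpiSCs, 8.76 in the rosettes, 8.92 and 8.79 in OPCs of passages 11 and 3, and 9.04 and 9.15 in oligodendrocytes of passages 11 and 3. Both were lowest in the rosettes and highest in oligodendrocytes of passage 3, and Col4a1 was the collagen gene with the lowest rosette-to-EpiSC difference, at -0.48 log2. The remaining 4 type IV genes each ranged over at most 0.56 log2, and none of the 6 was above the median of all genes on every array.

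Col4a1 and Col4a2 are printed together because their annotated starts lie 21 bases apart on opposite strands, so that the 2 windows share 78 bases (chr8:11312777-11312854). The Col4a1 window lies at chr8:11312777-11313076 on the minus strand and the Col4a2 window at chr8:11312555-11312854 on the plus strand (GRCm38.p6, RefSeq). The shared bases are in capitals, each read along its own gene, so that the 2 stretches are reverse complements.

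Col4a1: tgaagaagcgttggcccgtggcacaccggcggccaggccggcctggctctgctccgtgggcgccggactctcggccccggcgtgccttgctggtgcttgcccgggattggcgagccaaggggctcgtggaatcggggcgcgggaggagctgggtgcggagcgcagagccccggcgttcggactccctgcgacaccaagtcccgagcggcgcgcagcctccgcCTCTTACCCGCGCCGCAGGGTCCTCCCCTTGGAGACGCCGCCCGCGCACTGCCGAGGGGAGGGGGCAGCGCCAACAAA
Col4a2: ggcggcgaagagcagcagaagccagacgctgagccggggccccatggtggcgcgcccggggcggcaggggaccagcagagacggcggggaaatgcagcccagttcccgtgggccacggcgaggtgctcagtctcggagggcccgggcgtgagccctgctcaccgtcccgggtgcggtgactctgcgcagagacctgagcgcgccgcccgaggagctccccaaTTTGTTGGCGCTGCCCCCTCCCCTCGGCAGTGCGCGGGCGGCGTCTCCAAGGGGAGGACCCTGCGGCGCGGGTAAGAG

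The windows hold 37 and 33 CpGs, against the median of 7, and are 74.0% and 73.7% G and C. CCAAT was found at bases 106 to 110 of the Col4a1 window and at bases 219 to 223 of the Col4a2 window, on either strand, and 37.4% of all windows hold it.

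The 6 type VI genes, whose protein forms beaded filaments around muscle and nerve cells, ranged over 0.27 to 0.46 log2. The 4 transmembrane collagens, which include Col17a1 of the hemidesmosome and Col25a1 of neurons, ranged over 0.17 to 0.31 log2. Col15a1 and Col18a1, which link basement membranes to the tissue beneath, ranged over 0.30 and 0.49 log2.

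Col26a1 was the collagen gene with the lowest adjusted p between OPCs and the rosettes. It had 9.84 log2 in the EpiSCs, 10.23 in the rosettes, 9.78 and 9.61 in OPCs of passages 11 and 3, and 9.83 and 10.00 in oligodendrocytes of passages 11 and 3. The rosette array was the highest of the 6. OPCs minus rosettes was -0.45 at passage 11 and -0.61 at passage 3, a mean of -0.53 ± 0.18 log2 (SE) with an unadjusted p of 0.0322 and an adjusted p of 0.257 by limma. Col26a1 was also 1 of the 4 collagen genes that were higher in the rosettes than in the EpiSCs, by 0.39 log2.

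Small shifts ran the same way in most members. Against the EpiSCs, 4 of 44 collagen genes were higher in the rosettes (9.09%), against 41.3% of all genes, with a median of -0.18 log2 against -0.07 over all genes. The rosette array was the lowest of the 6 for 27 of 44 (61.4%), against 23.5% of all genes. Against the rosettes, 39 of 44 were higher in OPCs (88.6%), against 53.1% of all genes, with a median of 0.15 log2 against 0.02. Against OPCs, 37 of 44 were higher in oligodendrocytes (84.1%), against 50.2% of all genes, with a median of 0.09 log2 against 0.00. The rosette array enters both of the first 2 comparisons and the OPC arrays enter both of the last 2, so these counts are not separate.

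The passages differed in the same small way. In the passage fit 35 of 44 were higher at passage 11 (79.5%), against 56.8% of all genes, with a median of 0.16 log2 against 0.04. The 13 genes below the median of all genes on every array had shifts of the same kind, with a median of 0.19 log2 in OPCs and 0.15 log2 in oligodendrocytes between passages 11 and 3. For the other 31 collagen genes these medians were 0.17 and 0.06 log2. The 5 EpiSC markers, which were low outside the EpiSCs, were also higher at passage 11, 5 of 5 in both cell types. Their medians were 0.25 log2 in OPCs and 0.36 log2 in oligodendrocytes. These markers were likewise higher in OPCs than in the rosettes, 5 of 5 with a median of 0.28 log2. What part such a shared shift of low values has in the collagen counts was not tested.

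Without a fit, 8 of 44 collagen genes had both oligodendrocyte arrays above both OPC arrays (18.2%), against 19% of all genes, and 0 of 44 had both below, against 21.1%. Those 8 were Col1a1, Col3a1, Col4a2, Col4a4, Col14a1, Col15a1, Col20a1 and Col26a1, and among them the gap between the groups reached 0.38 log2 in Col20a1 and was at most 0.12 in the other 7. A 2-fold difference in the same direction at both passages was met by 0 of 44, against 1.51% of all genes.

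Genes that make, process and bind collagen were set beside the collagen genes. The lists held 21 genes of collagen hydroxylation, glycosylation and folding, 12 of procollagen cleavage and cross-linking, 10 collagen receptors and 15 matrix partners measured here. Limma called 1 of 21 folding genes between OPCs and rosettes, where 3.13% of all genes were called, and none of the other lists' genes in any comparison. The 1 called was P3h2, a prolyl hydroxylase of collagen chains, which had 10.98 and 10.52 log2 in OPCs of passages 11 and 3, against 9.01 in the rosettes. It was higher in OPCs by 1.74 ± 0.26 log2 (SE), or 3.35-fold, with an adjusted p of 0.0342 by limma, which rests on 1 rosette array and the spread of the other groups. Between rosettes and EpiSCs, 2 of 21, 4 of 12, 3 of 10 and 3 of 15 differed by at least 2-fold, against 10.6% of all genes. Among them were Pcolce, an enhancer of procollagen cleavage, at -2.18 log2, Nid2, a basement membrane linker, at -2.32 log2, and Adgrg1, a receptor for collagen III, at 2.24 log2.

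Between passages 11 and 3 in oligodendrocytes, partner genes were lower together with Col8a1 and Col12a1. A difference of at least 2-fold downward was met by 2 of 44 collagen genes, Col8a1 and Col12a1, against 3.16% of all genes, and by 8 of 15 matrix partners, 5 of 21 folding genes, 3 of 12 cross-linking genes and 2 of 10 receptors. In OPCs it was met by 1 of 44 collagen genes, Col12a1, against 0.487% of all genes, and by 4 of 15 matrix partners. None of these partner genes passed limma's test between the passages, since 0% of all genes did.

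The 4 matrix partners with the largest passage differences in oligodendrocytes were Thbs2, Thbs1, Fn1 and Nid1, proteins that cells lay down beside collagen. Thbs1 had 9.46 and 13.03 log2 in oligodendrocytes of passages 11 and 3, and 9.04 and 9.73 in OPCs of passages 11 and 3. Only the oligodendrocytes of passage 3 stood far apart in Thbs1. Thbs2, another thrombospondin, had 8.50 and 12.10 log2 in oligodendrocytes of passages 11 and 3, and 8.57 and 11.39 in OPCs of passages 11 and 3. Fn1, fibronectin, had 10.01 and 13.14 log2 in oligodendrocytes and 10.23 and 11.62 in OPCs, in the same order of passages. Nid1, the nidogen that links laminin to type IV collagen, had 8.75 and 11.80 log2 in oligodendrocytes and 8.69 and 11.13 in OPCs. In each of the 4 the passage 3 arrays of both cell types lay above both passage 11 arrays, as in Col12a1.

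The other lists held genes with a passage difference of this kind in oligodendrocytes. Lox, which cross-links collagen, had 7.46 and 10.89 log2 in oligodendrocytes of passages 11 and 3, against 7.33 and 7.40 in OPCs. Itga1, the collagen-binding integrin chain, had 8.52 and 10.83 log2 in oligodendrocytes of passages 11 and 3, against 9.50 and 9.34 in OPCs. Serpinh1, the collagen chaperone, had 9.58 and 11.02 log2 in oligodendrocytes of passages 11 and 3, against 9.99 and 10.92 in OPCs. Among the OPC and oligodendrocyte arrays Lox was high in the passage 3 oligodendrocytes alone, and it had 8.64 log2 in the rosettes. Itga1 was highest in the passage 3 oligodendrocytes, but the passage 11 oligodendrocytes also lay below both OPC arrays. It had 9.26 log2 in the EpiSCs and 7.75 in the rosettes. Serpinh1 was high at passage 3 in both cell types.

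**Figure D4:**
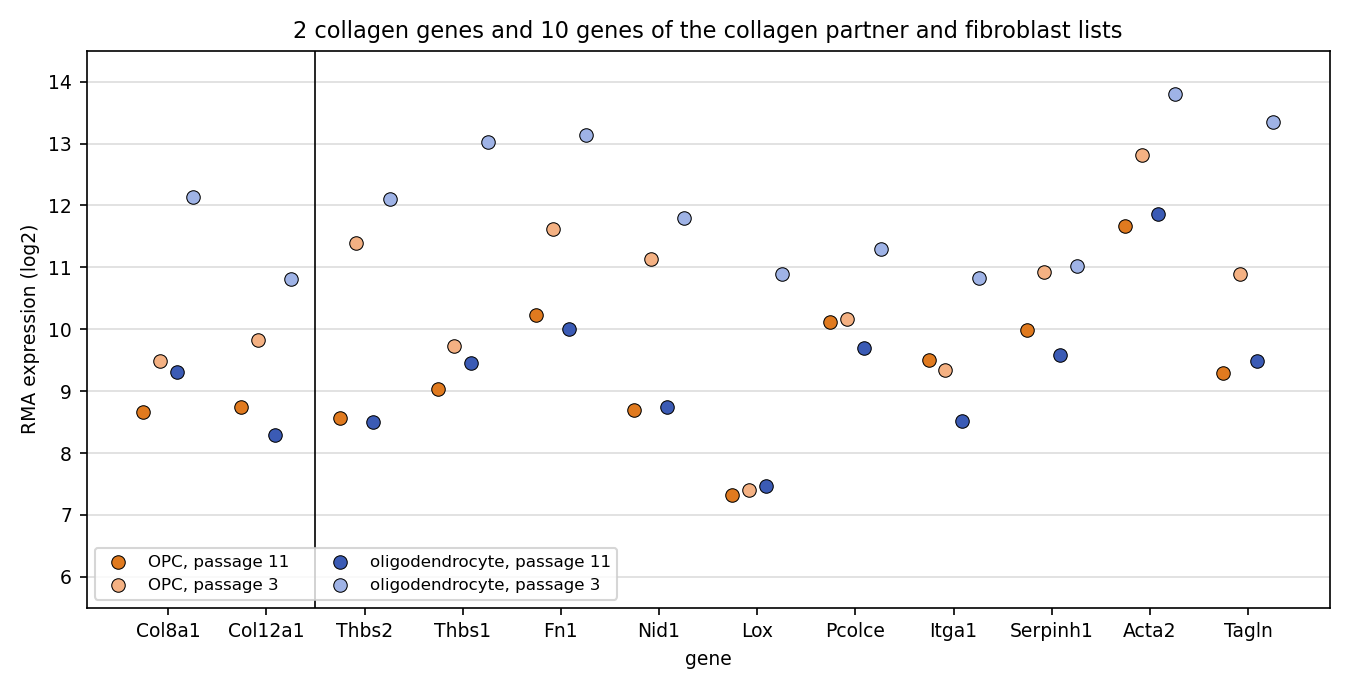
RMA expression (log2) of Col8a1, Col12a1 and 10 genes of the collagen partner and fibroblast lists in OPCs and oligodendrocytes of passages 11 and 3. Of the arrays drawn, the passage 3 oligodendrocytes hold the highest value in all 12 genes. The 10 list genes were picked with these values known, so this follows in part from the choice. Others of the partner lists, not drawn, were higher at passage 11 in oligodendrocytes, among them Tmem38b (0.61 log2) and Pcolce2 (0.58 log2). Lox has 10.89 in the passage 3 oligodendrocytes and at most 7.46 on the other 3 arrays.

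Markers of fibroblasts and pericytes, cells known to make collagen, were set beside these values. Their 13 genes averaged 8.44 and 9.17 log2 in oligodendrocytes of passages 11 and 3, and 8.30 and 8.52 in OPCs of passages 11 and 3. In oligodendrocytes 4 of 13 were at least 2-fold lower at passage 11, against 3.16% of all genes. Passage 11 minus passage 3 was -3.85 log2 for Tagln, -1.93 for Acta2 and -1.72 for Prrx1. The fourth, Dcn, had 9.06 and 10.07 log2 at passages 11 and 3. Pdgfrb was lower by less than 2-fold, at -0.96 log2. Others did not fall or hardly changed, with 0.28 for S100a4, 0.16 for Tbx18, 0.08 for Rgs5 and -0.01 for Thy1. Of these, S100a4, Tbx18 and Rgs5 were below the median of all genes on every array. In the passage fit 5 of 13 were higher at passage 11, and the median was -0.01 log2. The muscle and pericyte actin Acta2 had 11.87 and 13.79 log2 in oligodendrocytes and 11.66 and 12.81 in OPCs of passages 11 and 3, and 11.08 in the EpiSCs. Of the 13 markers, 7 were below the median of all genes on every array, namely Lum, Twist1, Twist2, Fap, Rgs5, S100a4 and Tbx18. The part of such cells in the passage difference of Col8a1 and Col12a1 was not tested. Of 7 endothelial markers, 6 were below the median on every array, as were 4 of 8 endoderm markers.

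Markers of neural cells also differed with passage in oligodendrocytes, where 3.16% of all genes were at least 2-fold lower at passage 11. Over all genes, passage 11 minus passage 3 had a 95th percentile of 0.53 log2 there. Of 7 astrocyte markers, 3 were at least 2-fold lower at passage 11 and 1 was higher, with passage 11 minus passage 3 at -1.82 log2 for Gfap, -1.43 for Aqp4, -1.35 for Aldh1l1 and 1.81 for S100b. Their 7 genes averaged 10.59 and 10.89 log2 in oligodendrocytes of passages 11 and 3, and 9.87 and 10.31 in OPCs of passages 11 and 3. The astrocyte markers thus differed in both directions. Of 8 neuron markers, 1 was at least 2-fold lower, Stmn2 at -4.44 log2, and 1 was higher, Tubb3 at 1.21 log2. Of the 5 rosette markers, Nes was lower, at -2.33 log2. Of 7 neural crest and Schwann cell markers, 1 was higher at passage 11 by at least 2-fold, Cdh19 at 3.32 log2, and none was lower. Their part in the collagen values was not tested either.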

How the data were processed

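Each of 6 mouse RNA samples was measured on 1 Affymetrix whole-transcript array. Per the submitters' processing notes, the authors used RMA and Affymetrix Expression Console, and the deposited values are on a log2 scale. Versions and settings were not given in the sources used here. RMA equalises the arrays' distributions, and low values can be background with compressed differences.

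Of 35556 measured transcripts, 21789 carried exactly 1 gene symbol. The transcript with the highest mean was kept for each gene, which left 19938 genes. Transcripts with several symbols or none were left out.

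Two-sided tests ran over all genes in limma 3.58.1 under R 4.3.3 (lmFit, eBayes), with p-values adjusted by Benjamini-Hochberg over all genes and called under 0.05. A fit by cell type used all 6 arrays (2 residual and 3.32 prior degrees of freedom). A passage fit used the 4 arrays of OPCs and oligodendrocytes, with a term for cell type (1 residual and 3.19 prior degrees of freedom), so its errors measure how far the passage differences of the 2 cell types disagree. The script was tested on simulated arrays that scattered independently, with added changes larger than those of most collagen genes here. That test checked the code and not how the tests behave on these data. Nothing in the labels says that arrays of a group are separate cultures, so the p-values cover only how these samples scatter, which may be technical in part. The number of arrays limits the precision. In the fit by cell type, passages 3 and 11 serve as replicates 1 and 2, so the scatter there includes the difference between passages.

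The labels tie the oligodendrocytes of each passage to the OPCs of that passage, so a fit with passage as a block was an alternative. The passage deviations of OPCs and oligodendrocytes correlated with r = 0.50 over the genes, which are not independent replicates. Other alternatives were a filter on dim genes, the mean of a gene's transcripts, an intensity trend, median centring of arrays, leaving out each array, the cell type covariate and a 4-fold limit.

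The members and lists were chosen with earlier results of these data known. Named by rule were collagen genes at least 2-fold apart between stages or passages on the brighter side of the median (Col8a1, Col12a1), the partner chain Col8a2, and up to 4 genes of each partner list, the largest. The other collagen genes named, and the cell type markers named, were chosen after their values were seen. Sequences are RefSeq's start windows of GRCm38.p6, found for 35 of 44 genes.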

Additional observations from a re-analysis of the deposited data

Results flagged for a closer look

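Col12a1 moved in opposite directions between oligodendrocytes and OPCs at the 2 passages. The difference was -0.47 log2 at passage 11 and 0.98 log2 at passage 3, with 1 array on each side, and the difference between the passages was not tested.

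Col5a2 did likewise, with oligodendrocytes minus OPCs at -0.13 log2 at passage 11 and 0.97 log2 at passage 3. Passage 11 minus passage 3 for Col5a2 was 0.20 log2 in OPCs and -0.90 log2 in oligodendrocytes. Col26a1 also had opposite signs for passage 11 minus passage 3, with 0.16 log2 in OPCs and -0.17 log2 in oligodendrocytes. These differences rest on 1 array on each side and were not tested.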

How the results depend on the processing

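The number of called collagen genes was 0 in all 3 tested comparisons under every alternative that kept all OPC and oligodendrocyte arrays. These included the fit with passage as a block, which called 0 collagen genes in either comparison by cell type. Between OPCs and rosettes its count over all genes was 1206 in place of 624. All arrays entered there, with the EpiSCs and rosettes coded midway between the passages. Between oligodendrocytes and OPCs the count was 83 in place of 89, from the arrays of those 2 cell types alone. Leaving out arrays gave 0 to 3 called collagen genes between oligodendrocytes and OPCs and 0 to 1 between OPCs and rosettes. Without the oligodendrocytes of passage 11, limma called Col8a1 (3.07, adjusted p = 1.25e-05), Col12a1 (1.52, 0.00952) and Col5a2 (0.87, 0.0113). Without those of passage 3 the Col8a1 difference was 0.23 (adjusted p = 0.689), and limma called Col20a1 (0.85, 0.00785) and Col9a1 (adjusted p = 0.0394), and without either it called Col12a1 between OPCs and rosettes (adjusted p = 0.0486), where 2897 of all genes were then called in place of 624. With 1 oligodendrocyte array the spread comes from the OPC pair alone, and over all genes the count between oligodendrocytes and OPCs was then 2919 without passage 3 and 1365 without passage 11, against 2 and 4 without the OPCs of passages 3 and 11. A 4-fold limit left 0 collagen genes lower at passage 11 in both cell types, against 1 at 2-fold. Ranges of at least 2-fold were met by 2 to 4 collagen genes when arrays were left out, an alternative added after the data were seen.

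Signs turned when single arrays were left out. Between oligodendrocytes and OPCs the range was -1.002 to 1.52 for Col12a1, with -0.28 without the OPCs of passage 11, -0.025 to 0.87 for Col5a2, and -0.092 to 0.37 for Col11a1, with -0.043 without the oligodendrocytes of passage 11. Between OPCs and rosettes it was -0.035 to 0.79 for Col8a1, -0.075 to 0.13 for Col5a2 and -0.0096 to 0.21 for Col20a1. Centring the arrays gave Col26a1 0.022 in place of -0.0029 between passages 11 and 3, and called 157 in place of 89 genes in all between oligodendrocytes and OPCs, 20 without dim genes. The passage fit without an array has 0 residual degrees of freedom and was not run. Low values have no detection call, so a small difference there was not told from background.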
